A study of Mus musculus with 18 samples.

Results

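The 10 genes described here encode the hypoxia-inducible factors (HIFs) and the enzymes that sense oxygen for them. They are the alpha subunits *Hif1a*, *Epas1* and *Hif3a*, the partner subunits *Arnt* and *Arnt2*, the prolyl hydroxylases *Egln1*, *Egln2* and *Egln3*, the ubiquitin ligase component *Vhl* and the asparaginyl hydroxylase *Hif1an*. They were picked by gene symbol from the 55491 rows of the gene count table. The rule uses no measured value, but it was set with earlier results of these data known. Of the 10, 9 were among the 16174 genes with enough counts to be tested. *Hif3a* was not, and is described by its counts.

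A HIF is a pair of an alpha subunit and an ARNT subunit that binds DNA and switches on genes of low-oxygen metabolism. When oxygen is plentiful, the EGLN enzymes hydroxylate prolines of the alpha subunit, VHL binds the hydroxylated protein and it is degraded, while HIF1AN hydroxylates an asparagine and so keeps coactivators away. Because this control acts on protein, mRNA levels report the supply of each part and not HIF activity, and *Egln1* and *Egln3* are themselves known HIF target genes.

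Mouse tail tendon fibroblasts (TFs) gave 18 RNA-seq libraries of polyadenylated RNA, 3 in each of 6 groups, after 4 days in 20% or 1% O2. Ctrl TFs came from Cre-negative *Hif1a* flox/flox mice by the study's methods, although the labels give their genotype as wild-type. cKO TFs came from *Hif1a* flox/flox;*ScxCre* mice, in which the promoter of the tendon gene *Scx* drives Cre, and the labels call them *Hif1a* knockout. The remaining arm was Ctrl TFs given Cre gesicles, vesicles that carry the Cre recombinase into cells, and the floxed alleles that its mice carried are not stated in the sources used here. The mice were 4 to 6 months old, of either sex and of mixed C57BL6J/129S1 background. The labels do not tie libraries to mice, so p-values measure the spread between these libraries. The TFs had been let out of tail tendons into collagen gels, then passaged onto culture plastic.

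Library totals ran from 26967440 to 51806453 counts, except for cKO 1% O2 replicate 1 with 6857558. With 3 counts as the floor, the smallest level a library could show was 0.0592 to 0.427 CPM, and this floor covers counting error only. Values below are CPM (counts scaled to a common library size) after TMM normalization, with group means given ± SD (n = 3). The 10 fibroblast markers checked (*Col1a1*, *Pdgfra*, *Tnmd* and others) summed to between 6549 and 17973 CPM in every library. A gene was called changed at an edgeR adjusted p under 0.05 with a fold change of at least 1.5. In bulk RNA, fewer cells of a type and less RNA per cell cannot be told apart.

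*Hif1a* (ENSMUSG00000021109, chromosome 12 from 73901375 to 73947530 on GRCm38), the gene targeted in the cKO mice, was the most abundant member and was not lower in the libraries labelled cKO. It stood at 335, 340 and 371 CPM in Ctrl 20% O2 and at 406, 294 and 431 CPM in the libraries labelled cKO 20% O2. In 1% O2 it stood at 488, 365 and 406 CPM in Ctrl TFs and at 428, 398 and 504 CPM in the libraries labelled cKO. The libraries of both genotypes overlapped at both O2 levels. Relative to Ctrl, *Hif1a* in the cKO-labelled libraries was at a log2 fold change of 0.11 in 20% O2 (95% interval −0.19 to 0.42, edgeR adjusted p = 0.693) and 0.08 in 1% O2 (−0.22 to 0.38, adjusted p = 0.778). With gesicles *Hif1a* was at 362 ± 31.0 CPM in 20% O2 and 384 ± 12.3 CPM in 1% O2. Against Ctrl TFs without gesicles, the log2 fold change was 0.06 (−0.25 to 0.36) and −0.13 (−0.43 to 0.17), with edgeR adjusted p-values of 1.00 and 1. A gene-level count pools all exons, floxed or not, so it does not test the deletion, and the cKO samples are called by their labels below. By qPCR, at a later time in culture, the study reported reduced *Hif1a* in cKO TFs. That assay and time differ from those here. Of the exonic bases of *Hif1a*, 5.6% are shared with the antisense gene *Gm15283* and 2.51% with *Gm49321*, and the sources used here do not state whether reads were counted by strand.

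**Figure D1:**
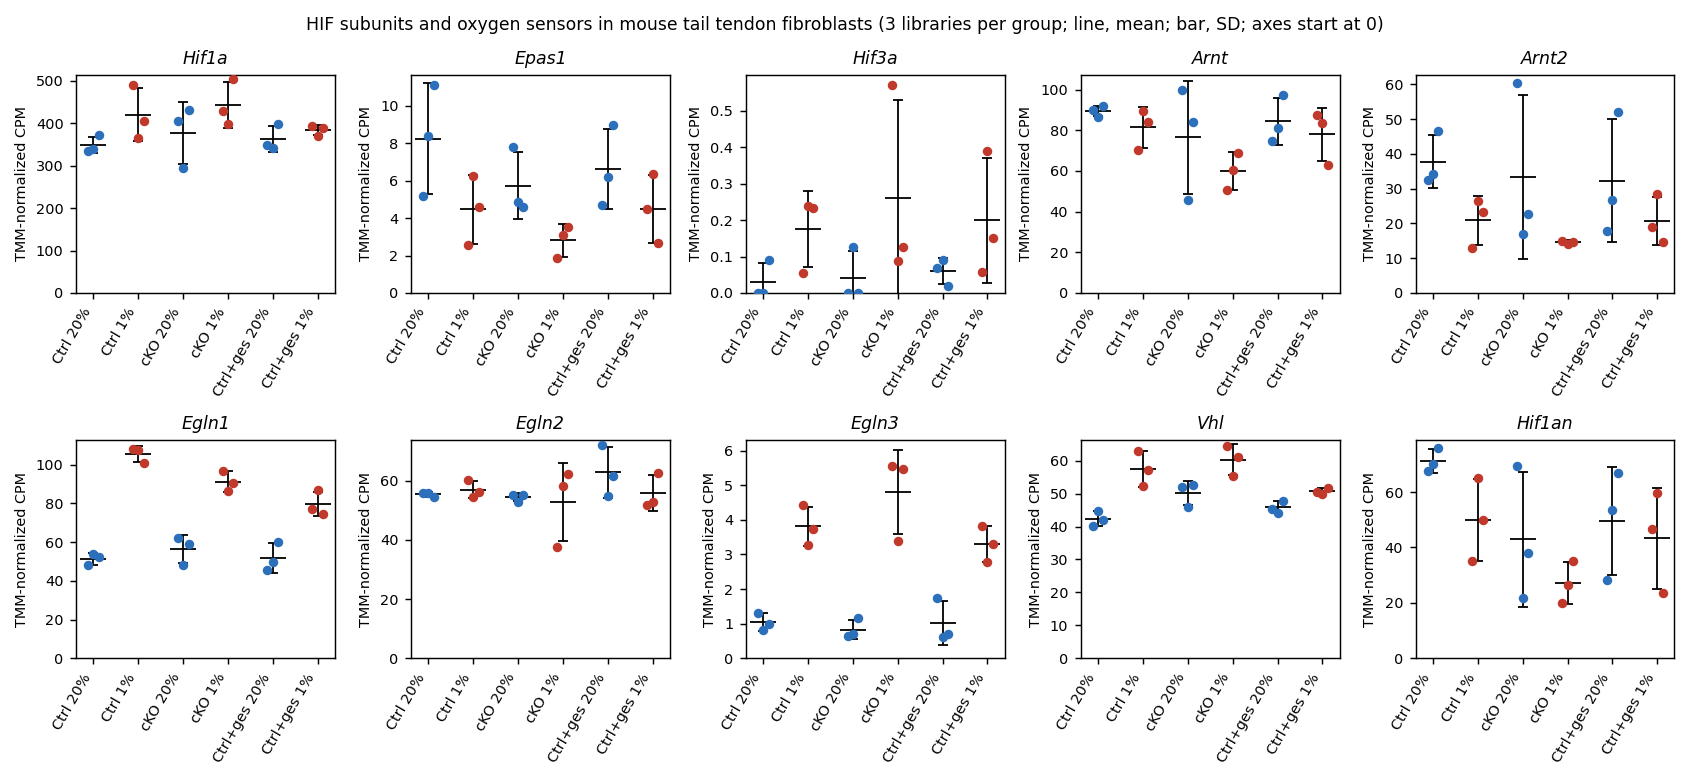
TMM-normalized CPM (y axis, from 0) of the 10 genes in each library, by group (x axis, with ges for gesicles), as points, with the group mean as a line and the SD as a bar, in 20% O2 (blue) and 1% O2 (red). *Egln1* and *Egln3* are higher in every 1% O2 library than in any 20% O2 library, while *Hif1a* is between 294 and 504 CPM throughout.

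Per kilobase of exonic sequence, the scale on which genes can be compared, the mean over the 18 libraries was 66.0 CPM for *Hif1a*, 20.2 for *Egln1*, 20.1 for *Egln2*, 17.1 for *Vhl*, 9.78 for *Arnt*, 7.17 for *Hif1an*, 3.46 for *Arnt2*, 0.966 for *Epas1*, 0.928 for *Egln3* and 0.0191 for *Hif3a*. Most neighbours in this order kept it in at least 17 of 18 libraries. The exceptions were *Egln1* and *Egln2*, with *Egln1* higher in 8 of 18 libraries, and *Epas1* and *Egln3*, with *Epas1* higher in 10 of 18. The *Hif1a* mRNA was 31.6 to 219 times as abundant per kilobase as that of *Epas1*, which encodes HIF-2 alpha and is best known from endothelium. *Epas1* had 13 to 455 counts per library.

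The starts of the 3 prolyl hydroxylase genes are shown because *Egln1* and *Egln3* rose in 1% O2 and *Egln2* was not called. The sequences are from RefSeq on GRCm38.p6, from 250 bases before to 50 bases after the transcription start, 5′ to 3′ on the gene's strand. They lie at chr8:124949205-124949504 on the minus strand for *Egln1*, chr12:54203825-54204124 on the minus strand for *Egln3* and chr7:27166753-27167052 on the minus strand for *Egln2*. Capitals mark ACGTG and GCGTG, the core of the HIF response element, on either strand, where overlapping matches run together.
Egln1: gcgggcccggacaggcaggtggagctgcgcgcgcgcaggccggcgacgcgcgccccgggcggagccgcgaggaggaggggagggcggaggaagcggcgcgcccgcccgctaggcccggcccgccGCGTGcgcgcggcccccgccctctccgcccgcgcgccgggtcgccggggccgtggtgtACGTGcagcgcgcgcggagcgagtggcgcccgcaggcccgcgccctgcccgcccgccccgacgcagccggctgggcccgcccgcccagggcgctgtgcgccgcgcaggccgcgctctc
Egln3: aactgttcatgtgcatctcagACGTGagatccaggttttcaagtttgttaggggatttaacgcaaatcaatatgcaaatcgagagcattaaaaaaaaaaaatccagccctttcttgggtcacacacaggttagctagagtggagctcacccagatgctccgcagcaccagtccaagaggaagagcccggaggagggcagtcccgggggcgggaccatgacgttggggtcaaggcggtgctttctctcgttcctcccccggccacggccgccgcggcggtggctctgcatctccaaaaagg
Egln2: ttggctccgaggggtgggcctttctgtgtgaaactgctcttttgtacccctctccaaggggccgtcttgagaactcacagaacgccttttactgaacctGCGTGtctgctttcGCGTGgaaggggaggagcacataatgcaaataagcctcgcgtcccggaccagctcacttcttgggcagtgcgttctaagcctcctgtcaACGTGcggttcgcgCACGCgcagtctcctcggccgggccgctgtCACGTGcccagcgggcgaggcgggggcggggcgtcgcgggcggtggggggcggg

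*Egln1* had 2 matches, at 126 and 68 bases before the start, in a window of 86% G and C. *Egln3* had 1 match, farther from the start, in a window of 54.7% G and C. *Egln2* had 6 matches in this window, of which a pair overlaps in a palindrome that spans the start, and 1 in the window of its other listed start. Among the other members with an entry, *Hif1a* had 3 matches, *Hif3a* 2, *Arnt* 1, and *Arnt2*, *Vhl* and *Hif1an* 0. *Epas1* had no entry. Of 32851 promoters of the same length, 43.8% held at least 1 match, 20.6% at least 2 and 0.694% at least 6. A match is a string of letters and not a bound site.

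The effect of O2 on the oxygen sensors was first compared in Ctrl TFs. Of the 9 members tested, 2 rose in 1% O2, *Egln1* and *Egln3*, and 0 fell, against 2.01% of all genes tested that rose and 0.674% that fell (2.68% in either direction). The median log2 fold change of the members was 0.04, and −0.01 over all genes. In the libraries labelled cKO the same 2 of 9 rose and 0 fell (all genes, 1.94% higher and 1.07% lower, 3.01% in all), with a median of −0.04 in the members and in all genes. With gesicles the same 2 of 9 rose and 0 fell (all genes, 1.64% higher and 0.767% lower, 2.41% in all), with a median of −0.11 in the members and −0.02 in all genes. The 3 comparisons use separate libraries, although Ctrl TFs with and without gesicles may come from the same mice. Averaged over the 3 arms, *Egln1* and *Egln3* rose and *Epas1* and *Arnt2* fell, 4 of 9 members, where 5.36% of all genes rose and 5.13% fell (10.5% in all). The member median was −0.06 in that average, and −0.02 over all genes.

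**Figure D2:**
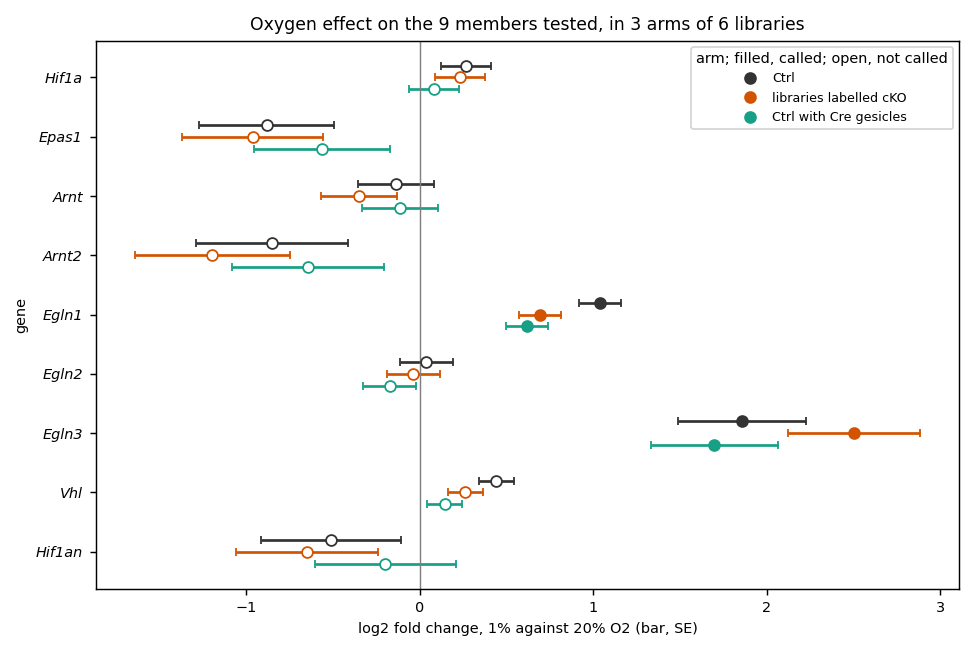
Log2 fold change of 1% against 20% O2 (x axis, with the SE as a bar) of the 9 members tested (y axis) in the 3 arms, 3 against 3 libraries each, with filled points where the change was called. *Egln1* (0.62 to 1.04) and *Egln3* (1.70 to 2.50) were called in each arm, and the other 7 genes in none.

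*Egln1* (ENSMUSG00000031987, chromosome 8 from 124908587 to 124949324) encodes PHD2, the main HIF prolyl hydroxylase. It stood at 47.9, 53.8 and 52.2 CPM in Ctrl 20% O2 and at 108, 107 and 101 CPM in Ctrl 1% O2. The cKO-labelled libraries had it at 62.0, 48.1 and 58.9 CPM in 20% O2 and at 96.9, 86.1 and 90.7 CPM in 1% O2. With gesicles it stood at 45.4, 49.6 and 60.3 CPM in 20% O2 and at 77.3, 86.6 and 74.7 CPM in 1% O2. All 9 libraries in 1% O2 were above all 9 in 20% O2. The log2 fold change was 1.04 in Ctrl TFs (edgeR adjusted p = 1.2e-04, SE 0.12), 0.69 in the libraries labelled cKO (SE 0.12, adjusted p = 0.00481) and 0.62 with gesicles (SE 0.12, adjusted p = 0.0110). Averaged, it was 0.78 (SE 0.07, adjusted p = 1.8e-06), or 1.72-fold (95% interval 1.55 to 1.91).

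Set against the rise of *Egln1* in Ctrl TFs, the difference on the log2 scale was −0.34 in the cKO-labelled libraries (95% interval −0.71 to 0.02) and −0.42 with gesicles (−0.78 to −0.06). Neither difference passed the correction over all genes, with edgeR p-values of 0.0606 and 0.0256 and adjusted p of 1.00 for each. For both interactions edgeR called 0 of 9 members and 0% of all genes tested, and DESeq2 and limma voom called 0 members. At an unadjusted p under 0.05 there were 0 members in the genotype interaction and 1 in the gesicle interaction, *Egln1*, among 442 and 243 of the 16174 genes. In 1% O2, every gesicle library was below every Ctrl library, by 0.41 on average (SE 0.12). That difference had an edgeR p of 0.00388 and an adjusted p of 1. The cKO-labelled libraries were also all below Ctrl, by 0.21 (edgeR adjusted p = 0.351, SE 0.12). In the gesicle arm the call itself was narrow. It was lost without gesicle 20% O2 replicate 1, where the log2 fold change of 0.53 is under the fold minimum, without gesicle 20% O2 replicate 2 (0.59, adjusted p = 0.0698) and without gesicle 1% O2 replicate 2 (0.55, adjusted p = 0.0699).

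*Egln3* (ENSMUSG00000035105, chromosome 12 from 54178981 to 54203860), which encodes PHD3, had the largest change of the members and was among the scarcest. Counts were 49, 28 and 33 in Ctrl 20% O2 and 160, 110 and 144 in Ctrl 1% O2. They were 18, 27 and 51 in the libraries labelled cKO 20% O2 and 39, 118 and 219 in those labelled cKO 1% O2, where the first is the library with the smallest total. With gesicles they were 75, 27 and 36 in 20% O2 and 132, 86 and 110 in 1% O2. In CPM, the 9 libraries in 20% O2 ran from 0.611 to 1.74 and the 9 in 1% O2 from 2.78 to 5.55, without overlap. The log2 fold change was 1.86 in Ctrl TFs (edgeR adjusted p = 0.00963, SE 0.37), 2.50 in the libraries labelled cKO (SE 0.38, adjusted p = 0.00176) and 1.70 with gesicles (SE 0.37, adjusted p = 0.0198). Averaged it was 2.02 (SE 0.21, adjusted p = 9.8e-06), a 4.06-fold rise (95% interval 2.96 to 5.56).

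The difference between the arms in the rise of *Egln3* was within error, at 0.65 for cKO against Ctrl (95% interval −0.45 to 1.75) and −0.16 for gesicles (−1.24 to 0.93). With these few counts the call in Ctrl TFs was lost without Ctrl 20% O2 replicate 2 or 3 or Ctrl 1% O2 replicate 1 (log2 fold changes of 1.67, 1.78 and 1.69, adjusted p = 0.0617, 0.0563 and 0.0503). In the gesicle arm it was lost without 20% O2 replicate 2 or 3 (1.44 and 1.49, adjusted p = 0.116 and 0.0894) or 1% O2 replicate 1 or 3 (1.59 and 1.68, adjusted p = 0.0525 and 0.0617). In the libraries labelled cKO it was kept with each of the 18 libraries left out, with values of 2.36 to 2.84.

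*Egln2* (ENSMUSG00000058709, chromosome 7 from 27158658 to 27166802), which encodes PHD1, was the prolyl hydroxylase with no called change in any comparison. Its means were 55.5 ± 0.860 and 57.0 ± 2.86 CPM in Ctrl 20% and 1% O2, 54.4 ± 1.36 and 52.9 ± 13.3 CPM in the libraries labelled cKO, and 62.9 ± 8.67 and 55.8 ± 6.06 CPM with gesicles. The low value of 37.7 CPM in the small library, cKO 1% O2 replicate 1, carries the spread of that group. Over the 3 arms its mean log2 fold change was −0.06 (95% interval −0.24 to 0.13, edgeR adjusted p = 0.680). The highest level, 72.1 CPM, was in gesicle 20% O2 replicate 1.

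With *Egln1* and *Egln3* up and *Egln2* near its 20% O2 level, the make-up of the prolyl hydroxylase mRNA shifted. Per kilobase, *Egln1* made up 32.3% to 46.4% of the EGLN sum in the 9 libraries in 20% O2 (median 42.3%) and 46.8% to 63.4% in the 9 in 1% O2 (median 54.7%). *Egln2* went from a median of 56.7% to 42.9%, and *Egln3* from 0.880% to 2.83%. The EGLN sum itself was 32.5 to 39.0 CPM per kilobase in 20% O2 and 41.4 to 53.2 in 1% O2, and these ranges did not overlap. Even in 1% O2, *Egln3* was at most 4.90% of the sum. These shares restate the levels above and were not tested again.

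**Figure D3:**
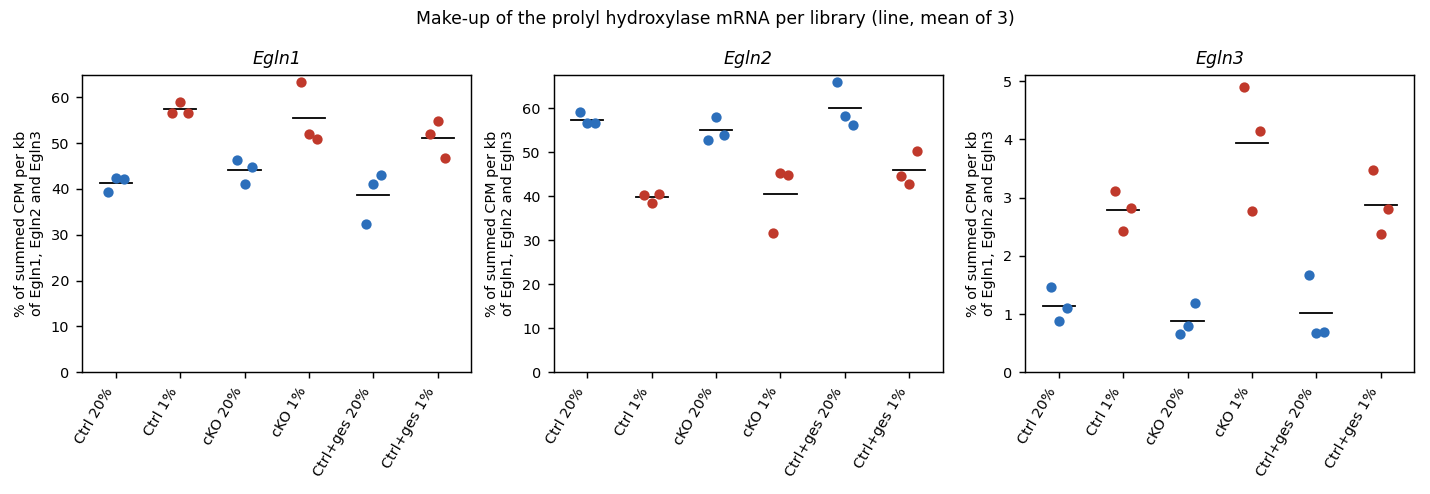
Share of *Egln1*, *Egln2* and *Egln3* in their summed CPM per kilobase (y axis, %), by group (x axis, with ges for gesicles), as 1 point per library with the group mean as a line, in 20% O2 (blue) and 1% O2 (red). *Egln1* is at 32.3% to 46.4% in 20% O2 and 46.8% to 63.4% in 1% O2, and *Egln3* stays at or under 4.90%.

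*Vhl* (ENSMUSG00000033933, chromosome 6 from 113623959 to 113631633), which encodes the protein that recognizes hydroxylated HIF alpha, was higher in 1% O2 by less than the fold minimum. In Ctrl TFs it stood at 40.2, 44.7 and 42.1 CPM in 20% O2 and at 63.1, 52.3 and 57.1 CPM in 1% O2. Among cKO-labelled libraries it stood at 52.1, 45.9 and 52.6 CPM in 20% O2 and at 64.6, 55.3 and 61.2 CPM in 1% O2. With gesicles it stood at 45.4, 44.3 and 47.8 CPM in 20% O2 and at 50.4, 49.9 and 51.7 CPM in 1% O2. The libraries of the 2 O2 levels did not overlap within any arm. Over the 3 arms its mean log2 fold change was 0.28 (edgeR adjusted p = 0.00258, SE 0.06), or 1.22-fold. *Vhl* ranked 1061 by edgeR p in that average among the 16174 genes tested. Of all genes, 24.6% had an adjusted p under 0.05 there when no fold minimum was asked. In single arms it was 0.44 in Ctrl TFs (adjusted p = 0.0230, but 0.203 without Ctrl 1% O2 replicate 1), 0.26 in the libraries labelled cKO (adjusted p = 0.151) and 0.15 with gesicles (adjusted p = 0.489). *Vhl* also had the smallest spread of the members within groups, an SD of 0.09 on the log2 scale, at percentile 4.30 of the 1000 genes nearest in level.

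*Epas1* (ENSMUSG00000024140, chromosome 17 from 86753700 to 86833410) was lower in 1% O2 when the arms were averaged. It stood at 5.20, 8.39 and 11.1 CPM in Ctrl 20% O2 and at 2.57, 6.26 and 4.59 CPM in Ctrl 1% O2. In the libraries labelled cKO it stood at 7.78, 4.86 and 4.58 CPM in 20% O2 and at 1.85, 3.08 and 3.55 CPM in 1% O2, without overlap. With gesicles it stood at 4.73, 6.20 and 8.98 CPM in 20% O2 and at 4.47, 6.34 and 2.68 CPM in 1% O2. Replicates thus spread widely within each group, and in Ctrl TFs and with gesicles the O2 levels overlapped. The averaged log2 fold change was −0.80 (edgeR adjusted p = 0.0181, SE 0.23), against single-arm values of −0.88, −0.96 and −0.56 that were not called (adjusted p = 0.259, 0.190 and 0.491).

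Endothelial RNA was checked beside *Epas1*. Of 8 endothelial markers, *Emcn*, *Tie1* and *Sox17* had at most 3 counts in any library, and *Pecam1*, *Cdh5*, *Kdr* and *Vwf* were at most 0.650 CPM. *Tek* alone carried the summed level, which ran from 25.8 to 76.6 CPM in 20% O2 and 11.5 to 40.1 CPM in 1% O2. The sum was thus lower in 1% O2 within overlapping ranges, as *Epas1* and *Arnt2* were, and its part in their results was not tested.

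*Hif3a* (ENSMUSG00000004328, chromosome 7 from 17031507 to 17062427), whose splice forms can act against other HIF alpha subunits, was near the limit of detection. It had 0, 0 and 3 counts in Ctrl 20% O2 and 2, 8 and 9 in Ctrl 1% O2. In the libraries labelled cKO it had 0, 5 and 0 counts in 20% O2 and 4, 3 and 5 in 1% O2, and with gesicles 3, 4 and 1 in 20% O2 and 2, 12 and 5 in 1% O2. Summed over 9 libraries, this was 16 counts in 20% O2 (0.0453 CPM), with 4 libraries at 0, and 50 counts in 1% O2 (0.173 CPM), with 0 libraries at 0. *Hif3a* did not pass the filter on low counts and was not tested in the main comparison. Without that filter edgeR called it higher in 1% O2 in the average of the arms, where 6.09% of all genes were called. With 0 to 12 counts per library, that call rests on few reads. So did 5 of the 18 fits with a library left out, in which it passed the filter. Its highest levels, in cKO 1% O2 replicate 1 (0.569 CPM) and gesicle 1% O2 replicate 2 (0.388 CPM), were both in 1% O2. Passing the filter thus depended on the O2 level where it was higher, and those fits are no support for a rise.

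*Arnt* (ENSMUSG00000015522, chromosome 3 from 95434388 to 95497240), the common partner of the alpha subunits, ran from 45.6 to 99.9 CPM and was not called in any comparison. Its means were 89.5 ± 2.58 and 81.4 ± 9.89 CPM in Ctrl 20% and 1% O2, 76.5 ± 27.9 and 59.9 ± 9.17 CPM in the libraries labelled cKO, and 84.5 ± 11.6 and 78.1 ± 13.1 CPM with gesicles. The averaged log2 fold change for O2 was −0.20 (edgeR adjusted p = 0.263, SE 0.13). Without cKO 20% O2 replicate 2, its lowest library, *Arnt* was called lower in 1% O2 in the libraries labelled cKO (−0.62, edgeR adjusted p = 0.0335). That fit called 6.73% of all genes in this comparison, against 3.01% with all 18 libraries.

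*Arnt2* (ENSMUSG00000015709, chromosome 7 from 84246278 to 84410176), a paralog of *Arnt* best known from neurons, fell with *Epas1*. It stood at 32.5, 34.3 and 46.5 CPM in Ctrl 20% O2 and at 13.1, 26.4 and 23.3 CPM in Ctrl 1% O2, without overlap. The cKO-labelled libraries had it at 60.3, 17.0 and 22.8 CPM in 20% O2 and at 15.1, 14.1 and 14.6 CPM in 1% O2, again without overlap. With gesicles it stood at 17.9, 26.8 and 52.1 CPM in 20% O2 and at 19.0, 28.3 and 14.7 CPM in 1% O2, which overlapped. The averaged log2 fold change was −0.90 (edgeR adjusted p = 0.0179, SE 0.25), and the single-arm values of −0.85, −1.19 and −0.64 were not called (adjusted p = 0.341, 0.146 and 0.481). In the libraries labelled cKO it was called without cKO 20% O2 replicate 2 (−1.51, edgeR adjusted p = 0.0465), where 6.73% of all genes were called. Of its exonic bases, 2.78% are shared with the antisense gene *Gm30873*. Per kilobase, *Arnt* was 1.59 to 4.01 times *Arnt2* in 20% O2 and 2.83 to 5.18 times in 1% O2.

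*Hif1an* (ENSMUSG00000036450, chromosome 19 from 44562850 to 44576274), which encodes the factor inhibiting HIF, had the second largest spread of the members within groups. It stood at 67.5, 70.1 and 76.0 CPM in Ctrl 20% O2 and at 35.1, 64.9 and 49.9 CPM in Ctrl 1% O2, all below. Among cKO-labelled libraries it stood at 69.4, 21.6 and 37.8 CPM in 20% O2 and at 19.9, 26.5 and 35.1 CPM in 1% O2. With gesicles it stood at 28.4, 53.4 and 66.9 CPM in 20% O2 and at 46.8, 59.5 and 23.5 CPM in 1% O2. In both of these arms the O2 levels overlapped. The averaged log2 fold change was −0.45 (edgeR adjusted p = 0.172, SE 0.23), which was not called. *Hif1a* itself had an averaged log2 fold change of 0.20 (edgeR adjusted p = 0.0940, SE 0.08), also not called.

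The spread of *Arnt*, *Hif1an*, *Arnt2* and *Epas1* within groups followed a property of the libraries. For each library, the median deviation from its group over short genes was subtracted from that over long genes. Long genes had over 6291 exonic bases (the upper quartile) and short genes under 2250 (the lower quartile). This balance ran from −0.62 in cKO 20% O2 replicate 2 to 0.39 in cKO 20% O2 replicate 1, on the log2 scale. *Arnt*, *Hif1an* and *Arnt2* are themselves long genes by this cut, so a positive relation to the balance is likely for them. How closely the other long genes tracked the balance was not counted. The deviation of *Arnt* (8.01 kb) tracked it with Pearson's r = 0.961 and Spearman's rho = 0.895 over 18 libraries, and that of *Hif1an* (6.61 kb) with r = 0.956 and rho = 0.938. By exact permutation within groups, two-sided and adjusted over the 9 members, p was 0.000772 for r and 0.000868 for rho of *Arnt*, and 0.000193 for both of *Hif1an*. The unadjusted p of *Hif1an*, 2.1e-05, is the smallest that these permutations can give, and that of *Arnt* was 0.000171 for r and 0.000193 for rho.

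*Arnt2* (r = 0.773, rho = 0.748) and *Epas1* (r = 0.707, rho = 0.771) tracked the balance less closely. Their exact permutation p-values were 0.0149 and 0.00259 for r (adjusted 0.0335 and 0.00778) and 0.0108 and 0.00214 for rho (adjusted 0.0244 and 0.00643). For *Egln1* r was 0.671 (exact permutation p = 0.0356, adjusted 0.0642) and rho 0.641 (p = 0.0278, adjusted 0.05). The other members, *Hif1a*, *Egln2*, *Egln3* and *Vhl*, had r between −0.266 and 0.429 and rho between −0.352 and 0.265, with exact permutation p adjusted to 0.307 or more. Without the 2 libraries farthest from the median balance, r was 0.929, 0.954, 0.727 and 0.767 for *Arnt*, *Hif1an*, *Arnt2* and *Epas1*, and 0.505 for *Egln1*. Libraries that may come from 1 mouse were counted separately here, and what sets the balance was not tested. Among the 36 pairs of members, the highest r within groups was that of *Arnt* and *Hif1an*, with r = 0.889 (exact permutation p = 0.000171, adjusted 0.00309), rho = 0.845 (p = 0.000857, adjusted 0.00772) and r = 0.864 without 2 libraries. Both genes track the balance, and the values for pairs were not adjusted for it, so this is no separate relation between them.

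**Figure D4:**
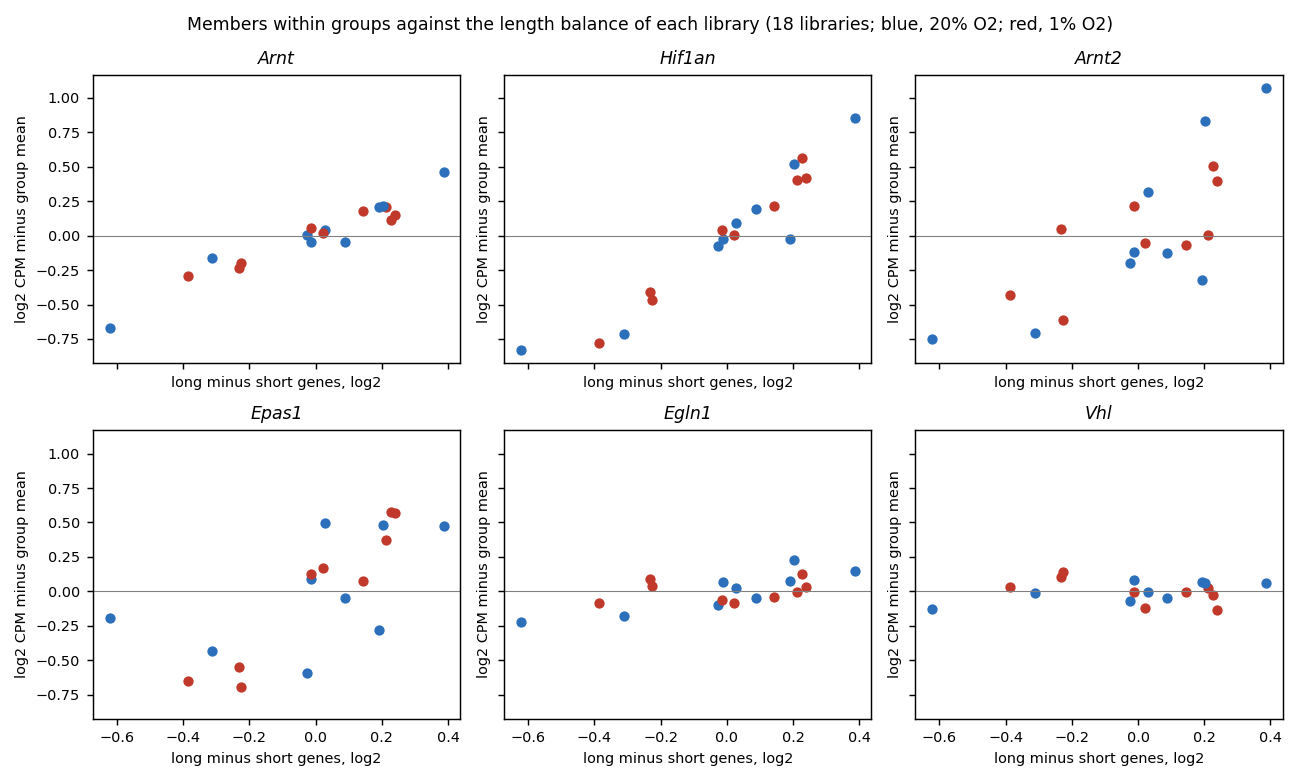
Deviation of 6 members from their group mean (y axis, log2 CPM) against the balance of long and short genes of the same library (x axis, log2), 1 point for each of 18 libraries, in 20% O2 (blue) and 1% O2 (red). *Arnt* (r = 0.961) and *Hif1an* (r = 0.956) follow the balance, and *Vhl* (r = 0.0743) does not.

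The balance also differed between the groups compared. In the averaged O2 comparison the median log2 fold change was 0.10 over the short genes and −0.16 over the long genes, and for cKO against Ctrl 0.27 and −0.18 in 20% O2 and 0.25 and −0.25 in 1% O2. An offset for gene length in each library was therefore added after the data were seen. With it, the averaged O2 values were −0.72 for *Epas1* (edgeR adjusted p = 0.0140, SE 0.20), −0.70 for *Arnt2* (SE 0.21, adjusted p = 0.0181), 0.78 for *Egln1* (adjusted p = 5.1e-06) and 1.99 for *Egln3* (adjusted p = 6.8e-06), and all 4 were still called. *Hif1a* came to 0.31 (SE 0.08, adjusted p = 0.0102) and *Vhl* to 0.26 (adjusted p = 0.0103), both under the fold minimum. *Arnt* was at −0.01 and its SE went from 0.13 to 0.07. For O2 in the libraries labelled cKO, the offset gave −0.09 for *Arnt* (edgeR adjusted p = 0.711) and −0.90 for *Arnt2* (adjusted p = 0.151). The fit without cKO 20% O2 replicate 2, in which both were called, had no offset and left out the library with the lowest balance.

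Between the libraries labelled cKO and Ctrl, edgeR called 0 of 9 members in 20% O2 (0.538% of all genes tested) and 0 of 9 in 1% O2 (0.0866% of all genes). At an unadjusted p under 0.05 there was 1 member in 20% O2, *Vhl*, and 0 in 1% O2, where 2481 and 2874 of the 16174 genes passed. DESeq2 called 0 members at both O2 levels. *Vhl* was at a log2 fold change of 0.25 (edgeR adjusted p = 0.280, SE 0.10). The member medians were −0.18 and −0.21, against 0.04 and 0.01 over all genes. The largest difference was that of *Hif1an*, at −0.73 in 20% O2 (edgeR adjusted p = 0.379, SE 0.41) and −0.87 in 1% O2 (SE 0.41, adjusted p = 0.284), where all 3 libraries labelled cKO were below all 3 Ctrl libraries. *Arnt* and *Egln1* were separated in the same way in 1% O2, and the share of all genes so separated was not counted. With limma voom and sample quality weights, *Hif1an* was called at both O2 levels, at −0.82 (limma adjusted p = 0.0271) and −0.86 (adjusted p = 0.0371), but that setting also called 9.41% and 7.49% of all genes, a share near 1 of 9 members. With the length offset it was −0.62 and −0.64 (edgeR adjusted p = 0.354 and 0.304). *Arnt* went from −0.23 and −0.44 to −0.05 and −0.17 with that offset, and *Arnt2* from −0.18 and −0.52 to −0.05 and −0.24, all with adjusted p of 0.301 or more.

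**Figure D5:**
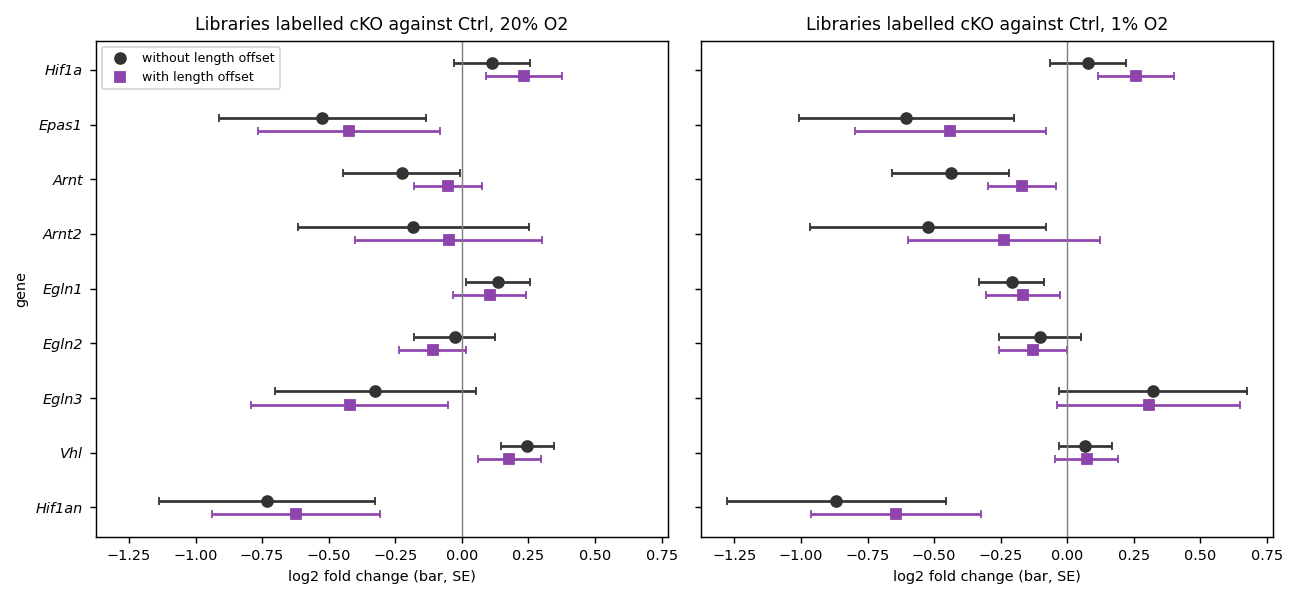
Log2 fold change of the libraries labelled cKO against Ctrl (x axis, with the SE as a bar) of the 9 members (y axis) in 20% and 1% O2, 3 against 3 libraries each, without (circles) and with (squares) the offset for gene length. *Hif1a* is at 0.11 and 0.08 without the offset and 0.23 and 0.26 with it, and no member was called in either fit.

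Between Ctrl TFs with and without gesicles, edgeR called 0 of 9 members in 20% O2 (0.0247% of all genes) and 0 of 9 in 1% O2 (0% of all genes). At an unadjusted p under 0.05 there were 0 members and 1 (*Egln1*, above), among 594 and 324 of the 16174 genes, and DESeq2 and limma voom called 0 in each. The log2 fold changes ran from −0.52 (*Hif1an*) to 0.18 (*Egln2*) in 20% O2 and from −0.41 (*Egln1*) to 0.01 (*Epas1*) in 1% O2.

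Genes downstream were counted from a list of 25 HIF targets, drawn up with earlier results of these data known. Of these, 17 rose in Ctrl TFs, 14 in the libraries labelled cKO and 13 with gesicles, and 0 fell in any arm, where 2.01%, 1.94% and 1.64% of all genes rose. The median log2 fold changes were 1.15, 0.89 and 0.64, against −0.01, −0.04 and −0.02 over all genes. The lactate exporter *Slc16a3* (averaged log2 fold change 5.93), the mitochondrial *Ndufa4l2* (5.37), *Ankrd37* (3.06) and the adenylate kinase *Ak4* (2.34) led the averaged comparison, each with an edgeR adjusted p of 2.1e-07 or less. In that comparison 16 of the 25 rose and 0 fell (all genes, 5.36% and 5.13%). Between the libraries labelled cKO and Ctrl, 1 of the 25 was called in 20% O2 (all genes, 0.538%), *Vegfa*, which encodes an angiogenic growth factor. In 20% O2 *Vegfa* averaged 128 ± 37.7 CPM in Ctrl TFs, against 59.8 ± 10.2 CPM in cKO-labelled ones, a log2 fold change of −1.10 (edgeR adjusted p = 0.0372, SE 0.22). In 1% O2, 0 of the 25 were called (all genes, 0.0866%). The 20% O2 comparison called 87 of all genes. With 1 library left out this ran from 1 (without Ctrl 20% O2 replicate 1) to 113 (without cKO 1% O2 replicate 1). Whether *Vegfa* stayed called in those fits was not checked.

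The genes whose log2 CPM was most like that of a member over the 18 libraries were named for 5 members. For *Egln1* they were *P4ha1* (Pearson's r = 0.967), *Pdk1* (0.966) and *Slc16a3* (0.952), and after removal of the group means r was 0.668, 0.569 and 0.580. For *Egln3* they were *Nat14* (0.959), *Pgrmc1* (0.953) and *Banp* (0.953). For *Epas1* they were *Septin8* (0.946), *Crtc1* (0.945) and *Tmtc2* (0.942), and 0.892, 0.890 and 0.922 after removal of the group means. For *Arnt2* they were *Gm43682* (0.958), *Notch3* (0.948) and *Sptbn1* (0.947), and 0.956, 0.917 and 0.944 after that removal. For *Hif1a* they were *Zc3h14* (0.861), *Stk38* (0.832) and *Ttc8* (0.820). These are the highest of all genes tested, so they carry no p. The libraries share depth and length balance across all these genes.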

How the data were processed

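Reads were trimmed, aligned and counted per gene by the authors, whose processing notes name cutadapt, FastQC 0.11.8, STAR, RSEM 1.3.3 and MultiQC 1.20 with GRCm38. The deposited table holds estimated counts per gene as whole numbers, and strand is not stated in the sources used here. The sources differ on serum, at 10% in the labels and 1% in the methods.

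Groups came from the labels. All 18 libraries entered 1 edgeR 4.0.16 quasi-likelihood fit (R 4.3.3, TMM, filterByExpr) with 1 term per group, and p-values were Benjamini-Hochberg adjusted over 16174 genes. DESeq2 1.42.0 and limma 3.58.1 (voom) were alternatives. The fit was tested on simulated data. The members and gene lists were chosen with earlier results of these data known. Named list genes are at most 4 per list, those called with the largest change. Like genes are the 3 highest Pearson's r. Gene positions are from GENCODE M21.

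Same-numbered libraries deviated together in Ctrl 20% against 1% O2 (r of 0.271 to 0.458) and in Ctrl with against without gesicles (0.346 to 0.462 in 20% O2, 0.193 to 0.284 in 1% O2). An alternative, the replicate block, therefore added a term for the replicate number. That term was shared by all 6 groups, so it also paired the libraries labelled cKO with Ctrl. Same-numbered libraries of cKO and Ctrl had r of −0.149 to −0.0407 in 20% O2 and −5.2e-05 to 0.218 in 1% O2. In cKO 20% against 1% O2 and gesicle 20% against 1% O2 the lowest r was 0.0921 and −0.00612.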

Additional observations from a re-analysis of the deposited data

Results flagged for a closer look

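Besides mouse genes, the count table holds rows for reporter and recombinase sequences that no comparison above used. Counts of *cre* reached at most 5 in a library labelled cKO, in 5 of 6 such libraries (15 counts in all), and were 0 in the 12 others. Counts of *egfp* reached at most 5, also in 5 of the 6 libraries labelled cKO (14 counts in all), and were 0 in the 12 others. Counts of *tdtomato* reached at most 3, in 5 of 6 libraries with gesicles (8 counts in all), and were 0 in the 12 others. Each was noted because it lay above the level in Ctrl libraries.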

How the results depend on the processing

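*Egln1*, *Egln3*, *Epas1* and *Arnt2* were called in the average of the arms in 28 of 28 alternatives. The length offset, alone or with the replicate block, was chosen after seeing the data. With the replicate block, members called stayed at 2, 2, 2 and 4 for O2 (Ctrl, cKO, gesicles, average) and 0 elsewhere, and it changed no call. With limma voom and sample quality weights, members called were 1 for O2 in cKO (*Egln1*, 0.58, fell under the fold minimum) and 1 for cKO against Ctrl at each O2 level (*Hif1an*), where that setting called 16.7%, 9.41% and 7.49% of all genes. With 1 library left out, members called were 1 to 2 for O2 in Ctrl, 2 to 4 in cKO, 0 to 2 with gesicles and 4 to 5 in the average, and 0 in all other comparisons. Of all genes, these fits called 1.23% to 3.33%, 1.54% to 6.73%, 0.889% to 3.04% and 8.95% to 12.3% in the same order, and at most 0.686% elsewhere. The 4 members in cKO were called without cKO 20% O2 replicate 2, at 6.73% of all genes. Without the filter on low counts, *Hif3a* was also called in the average, where 6.09% of all genes were called. Signs were followed in 55 results of single members and not in the others. Among these 55, signs turned only in values that were not called. Under voom these were *Hif1a* (−0.00051) and *Egln2* (0.068) for O2 in cKO. Under the length offset, without and with the block, they were *Arnt* for O2 in Ctrl (0.027 and 0.028) and with gesicles (0.021 and 0.025), *Egln1* with against without gesicles in 20% O2 (−0.043 and −0.045) and *Egln2* for O2 in Ctrl (−0.034 and −0.034). With 1 library left out, the ranges that crossed 0 were *Arnt* cKO against Ctrl in 20% O2 (−0.47 to 0.039), *Arnt2* cKO against Ctrl in 20% O2 (−0.93 to 0.13), *Egln1* gesicles against none in 20% O2 (−0.11 to 0.10), *Egln2* for O2 in the average (−0.11 to 0.0062), *Egln2* for O2 in cKO (−0.16 to 0.15), *Egln2* for O2 in Ctrl (−0.046 to 0.039), *Hif1a* cKO against Ctrl in 1% O2 (−0.0038 to 0.23), *Hif1a* cKO against Ctrl in 20% O2 (−0.020 to 0.26), *Hif1a* gesicles against none in 1% O2 (−0.21 to 0.016), *Hif1a* gesicles against none in 20% O2 (−0.017 to 0.098) and *Hif1an* for O2 with gesicles (−0.51 to 0.080). The cause was not tested. The 6857558 counts of cKO 1% O2 replicate 1 limit *Epas1*, *Egln3* and *Hif3a* there.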

Other observations

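Both lists here were drawn up with earlier results known. Of 23 listed genes for HIF protein turnover and cofactors, 22 were tested, and in the average of the arms 1 rose, *Pkm*, a pyruvate kinase that can also bind HIF-1 alpha (log2 fold change 0.75, SE 0.09, edgeR adjusted p = 2.7e-05), and 0 fell. Of all genes, 5.36% rose and 5.13% fell in this comparison, a share near that of the list. Their median was −0.02, as over all genes.

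Of 11 listed ARNT partners and related bHLH-PAS genes, 8 were tested, of which 1 rose and 1 fell, with a median of −0.01 against −0.02 over all genes. With 8 genes, these counts say little beside the 10.5% of all genes called. *Ahrr*, which encodes a repressor of the aryl hydrocarbon receptor, rose (1.00, SE 0.18, edgeR adjusted p = 8.8e-04), and *Ahr*, which encodes that receptor, fell (−0.75, SE 0.23, adjusted p = 0.0286).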
